A study of Mus musculus and Homo sapiens with 83 samples.

Results

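The genes described here encode the nuclear part of the mitochondrial respiratory chain and ATP synthase, followed in single mouse embryonic stem cells (mESCs) over 9 days of differentiation. They were taken by symbol: names that begin with Ndufa, Ndufb, Ndufc, Ndufs, Ndufv, Uqcr, Cox4 to Cox8 or Atp5, and Sdha, Sdhb, Sdhc and Sdhd, without pseudogene names ending in -ps. Of 55401 mouse gene IDs, 98 with 97 symbols met this rule. By role, 47 belonged to complex I, 4 to complex II, 8 to complex III, 21 to complex IV and 18 to complex V. Complex I comprised 39 subunits and 8 Ndufaf assembly factors. Ndufa4 and Ndufa4l2 were counted in complex IV, where the proteins act, and complex V comprised 17 subunit IDs and the associated Atp5s.

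Complex I (NADH dehydrogenase) and complex II (succinate dehydrogenase) pass electrons to ubiquinone, complex III (cytochrome bc1) passes them to cytochrome c, and complex IV (cytochrome c oxidase) passes them to oxygen. Complexes I, III and IV pump protons, and complex V, the ATP synthase, lets them flow back to make ATP. Most subunits are encoded in the nucleus, imported and joined with a small set of subunits made from mitochondrial DNA. Pluripotent stem cells are known for high glycolysis, and a shift in the use of respiration during differentiation has been widely studied.

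RNA was measured by AMAR-seq, which lyses the cell membrane before the nuclear one and builds a Smart-seq2-type library from the RNA on a chip, here with 1 library per cell (24 of the 83 samples). The cells were E14, an mESC line of 129/Ola mice. At day 0, 6 cells came from culture on MEF feeders (mouse embryonic fibroblasts) with LIF, a cytokine that keeps mESCs undifferentiated. Later cells had been replated on gelatin without feeders or LIF to differentiate in no set direction, and day 3 gave 7 cells, day 6 gave 6 and day 9 gave 5.

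The labels name no separate cultures, so each day was 1 sample and no test between days was possible. Differences are described with counting intervals and the range over cells. Gene reads per cell numbered from 5800503 to 8801553 at day 0, while day 3 cells had 6106763 to 11094066, day 6 cells 8894830 to 16367029 and day 9 cells 3913595 to 9656797. The gene ID CT010467.1 alone took 13.0% to 75.2% of a cell's gene reads. Mitochondrially encoded genes took 3.29 to 24.2% of gene reads in day 0 cells. In later cells they took 2.00 to 4.59% (day 3), 2.96 to 7.50% (day 6) and 2.41 to 18.6% (day 9). Day 0 cells 1 to 4 had 11.8% or more, and day 0 cells 5 and 6 had 3.29% and 4.09%. Of the later cells only day 9 cell 4, at 18.6%, was above 10%. Results are therefore also given against day 0 cells 5 and 6 alone, those under 10%. This limit was applied to day 0 cells only, so day 9 cell 4 was kept. Pluripotency markers were present on every day: 7 of 8 had reads, summing to 6111 to 15539.6 CPM (reads per 1000000 gene reads) on day 0, while day 3 cells had 3881 to 15951, day 6 cells 2809.7 to 12239 and day 9 cells 4940.2 to 9799, and Sox2 was listed at 0 in all 24 cells. Dppa5a made up most of this sum, with 10409, 7956, 7907 and 6000 CPM in the sums of days 0, 3, 6 and 9. The others differed in direction. Pou5f1 had 137, 572, 576 and 271 CPM at days 0, 3, 6 and 9, and Esrrb 111, 29.9, 52.8 and 29.8. The 9 markers of fibroblasts, the feeder cells, summed to 0 to 215 CPM on day 0. Day 3 cells had 0 to 20.2, day 6 cells 0.225 to 42.6 and day 9 cells 0 to 35.7. All 9 had a read at day 0, Postn and Lum had none later, and Dcn had none at days 6 and 9. The 8 trophoblast markers summed to 223 to 1210.0 CPM in day 9 cells, against 0 to 109 CPM in day 0 cells. Elf5, Cdx2 and Hand1 were at 0 at day 0. Krt8 made up most of the day 9 sum, with 609.8 CPM, against 13.03 CPM in the day 0 sum. Eomes was lower in the day 9 sum than in that of day 0 (3.45 against 8.33 CPM). The remaining markers were higher, though Cdx2 reached only 0.74 CPM and Elf5 only 0.0548 CPM in the day 9 sum. The 5 markers of extraembryonic endoderm reached 338 CPM in a day 9 cell and the 4 of mesoderm 28.3 CPM, against 55.9 and 0.483 CPM in a day 0 cell, with T and Mesp1 at 0 at day 0. The 4 neural markers summed to at most 13.1 CPM in a cell, with Sox1 and Tubb3 listed at 0 throughout. As for Sox2, whether these listed zeros mean that no RNA was present was not tested. The part of these cell types in the results was not tested.

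After day 0 the share of reads of most nuclear-encoded members fell more, or rose less, than that of the median gene. The measure was the log2 ratio of a day's summed CPM to that of day 0, with 1 CPM added to each. The median over all genes measured, 0.09, 0.49 and 0.71 at days 3, 6 and 9, was then subtracted. Values below 0 mean a ratio below that of the median gene. A member 2-fold lower on this measure could fall less in CPM, as Ndufa11 did at day 9 (-1.31, CPM ratio 0.656). Summed over all members, CPM was 21022, 12958, 19869 and 16889 at days 0, 3, 6 and 9. Genes were measured where the 2 days together held 20 reads or more and 2 or more libraries had a read. A share of reads cannot tell less RNA of a gene from more RNA of other genes. The median over the members was -0.86, -0.58 and -1.01 at days 3, 6 and 9. At day 3, 41 of 90 measured members (45.6%) were at least 2-fold lower and 10 (11.1%) at least 2-fold higher. Over all genes measured at day 3 these shares were 23.5% and 20.7%. At day 6, 25 of 91 (27.5%) were lower and 10 (10.99%) higher, against 23.1% and 25.4% of all genes, so the share that was lower was near the background. At day 9, 45 of 89 (50.6%) were lower and 4 (4.49%) higher, against 23.8% and 25.2% of all genes. The 3 comparisons share the day 0 cells. Against day 0 cells 5 and 6 alone, the member medians were -1.40, -0.88 and -1.51 at days 3, 6 and 9, with 57, 40 and 59 members at least 2-fold lower. In that setting 26.7%, 24.8% and 24.6% of all genes measured were. The day 9 medians were then -1.48 for complex I, -1.53 for complex III, -2.23 for complex IV and -1.29 for complex V, against -0.87, -1.46, -1.58 and -0.77 with all day 0 cells.

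**Figure D1:**
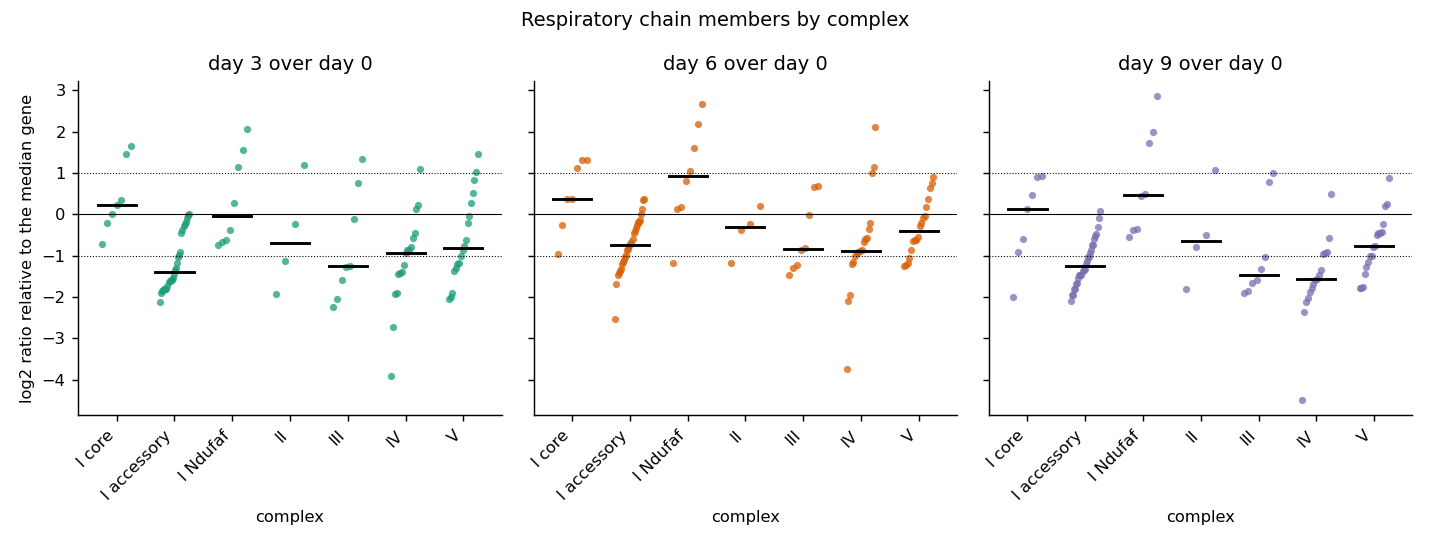
Log2 ratio of each measured member to day 0, relative to the median gene, by complex, with a panel for each later day; points are genes, bars are medians and dotted lines mark 2-fold. The medians of the complex I core subunits lie near 0 in all 3 panels, with single genes from -1.99 to 1.65, while the complex I accessory subunits, complex III and complex IV have medians below 0, and Cox7a1 is the lowest point in each panel.

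Of the 98 members, 93 had a read in at least 1 cell. Cox4i1, Cox6a2, Ndufa13, Ndufb4c and Ndufs6b were listed at 0 in all 24 cells. How reads were assigned to these IDs is not given in the sources used here, and whether a listed 0 means that no RNA was present was not tested. By counting error alone a count of 0 allows up to 0.0659 CPM in the day 0 sum and 0.0501, 0.0439 and 0.0822 CPM in those of days 3, 6 and 9 (3 reads). Cox4i1 is the general isoform of the largest nuclear-encoded complex IV subunit, and Ndufa13 is an accessory subunit whose span overlaps Tssk6. Ndufa11b and Cox8b had too few reads to be measured on any day, and Cox8c could be measured at day 6 only. Per cell, 77 to 91 members had a read at day 0, and 87 to 90 on each later day. The lowest counts were in the day 0 cells 1 to 3 (77, 80 and 84), and day 0 cells 5 and 6 had 91 and 90.

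Promoters of respiratory chain genes are known for sites of NRF1, of ETS factors such as GABP, and of YY1. RefSeq promoter windows on GRCm38.p6, from 250 bases before to 50 after a gene's start, were found for 74 of the 97 symbols (79 windows). The letters GCATGCG, the core of the NRF1 site, were in 16.5% of member windows on either strand, against 3.58% of all 32851 windows. CCGGAAG, an ETS core, was in 22.8% against 8.86%, and AAGATGG, as in YY1 sites, in 13.9% against 6.34%. Each was searched on both strands, and in member windows no match of one motif overlapped a match of another. The 34 member symbols with any of the 3 motifs had median relative ratios of -1.08, -0.66 and -0.996 at days 3, 6 and 9. The other symbols with a window had -0.61, -0.58 and -0.75. Both sets were thus below the median gene on each day.

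Promoter stretches are shown for 5 members that the results below turn on or that hold several motifs, 5′ to 3′ in the gene's orientation, with motif letters in capitals. Uqcr11 (complex III), from chr10:80406820-80406921 on the minus strand, ends 2 bases into the gene and holds an ETS core and, across the start, the NRF1 core. Cox6a1 (complex IV), from chr5:115348959-115349128 on the minus strand, holds an NRF1 core that reads the same on both strands and an ETS core near the start. Atp5j (complex V), from chr16:84834977-84835136 on the minus strand, holds all 3 motifs, and its span overlaps Gabpa. Cox6b2, from chr7:4753095-4753194 on the minus strand, and Cox7a1, from chr7:30184071-30184170 on the plus strand, are complex IV isoforms whose windows hold none of the 3.
Uqcr11: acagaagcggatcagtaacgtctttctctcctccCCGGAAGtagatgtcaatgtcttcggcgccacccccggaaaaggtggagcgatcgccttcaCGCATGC
Cox6a1: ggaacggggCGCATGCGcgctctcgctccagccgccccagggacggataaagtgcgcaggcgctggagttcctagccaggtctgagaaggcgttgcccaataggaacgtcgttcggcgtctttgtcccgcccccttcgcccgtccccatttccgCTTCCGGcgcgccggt
Atp5j: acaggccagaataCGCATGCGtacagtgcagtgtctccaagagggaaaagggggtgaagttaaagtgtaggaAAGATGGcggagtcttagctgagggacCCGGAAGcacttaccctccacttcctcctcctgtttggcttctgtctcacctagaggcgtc
Cox6b2: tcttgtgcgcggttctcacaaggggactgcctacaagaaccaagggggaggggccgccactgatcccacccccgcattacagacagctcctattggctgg
Cox7a1: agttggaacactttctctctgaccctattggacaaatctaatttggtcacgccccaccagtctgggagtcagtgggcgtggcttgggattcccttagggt

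Summed over members, complexes III and IV had lower medians on every later day than at day 0, whichever of 3 totals the reads were divided by. These were all gene reads, all but CT010467.1, whose share varied between cells, and all but CT010467.1 and the mitochondrially encoded genes. The ranges below are over totals without CT010467.1. Complex I summed to 9306 to 21968 (median 12455) CPM in day 0 cells, 6013 to 9565 (median 7415) at day 3, 8319 to 17131 (median 9117) at day 6 and 6037 to 10816 (median 7942) at day 9. The day 3 cells overlapped day 0 cells only between 9306 and 9565 CPM. Complex III summed to 2641 to 7157 (median 4047) CPM at day 0, 1907 to 2567 (median 2327) at day 3, 2043 to 3508 (median 2483) at day 6 and 1734 to 3437 (median 2307) at day 9. All 7 day 3 cells were below all 6 day 0 cells in this sum. Complex IV summed to 7601 to 18785 (median 10525) CPM at day 0, 4815 to 8894 (median 6048) at day 3, 4986 to 11225 (median 7168) at day 6 and 4639 to 8694 (median 5496) at day 9. Complex V summed to 4565 to 12113 (median 9977) CPM at day 0, 8816 to 12494 (median 11054) at day 3, 8323 to 10203 (median 9109) at day 6 and 6212 to 8437 (median 7378) at day 9. In day 0 cells 5 and 6 this sum was 10876 and 12113 CPM, within the day 3 range. The order of the complex V medians depended on the total: over all gene reads they were 5245, 4763, 6354 and 5407 CPM at days 0, 3, 6 and 9, and without the mitochondrially encoded genes as well they were 13049, 12185, 9805 and 7978. No direction is drawn for that sum. Over all gene reads the complex I medians were 6676, 2804, 6811 and 5721 CPM, so that of day 6 was then above that of day 0, and complex III cells of days 3 and 0 did not overlap with any of the 3 totals. Complex II was the smallest sum and overlapped between all days, with medians of 575, 494, 704 and 487 CPM at days 0, 3, 6 and 9.

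**Figure D2:**
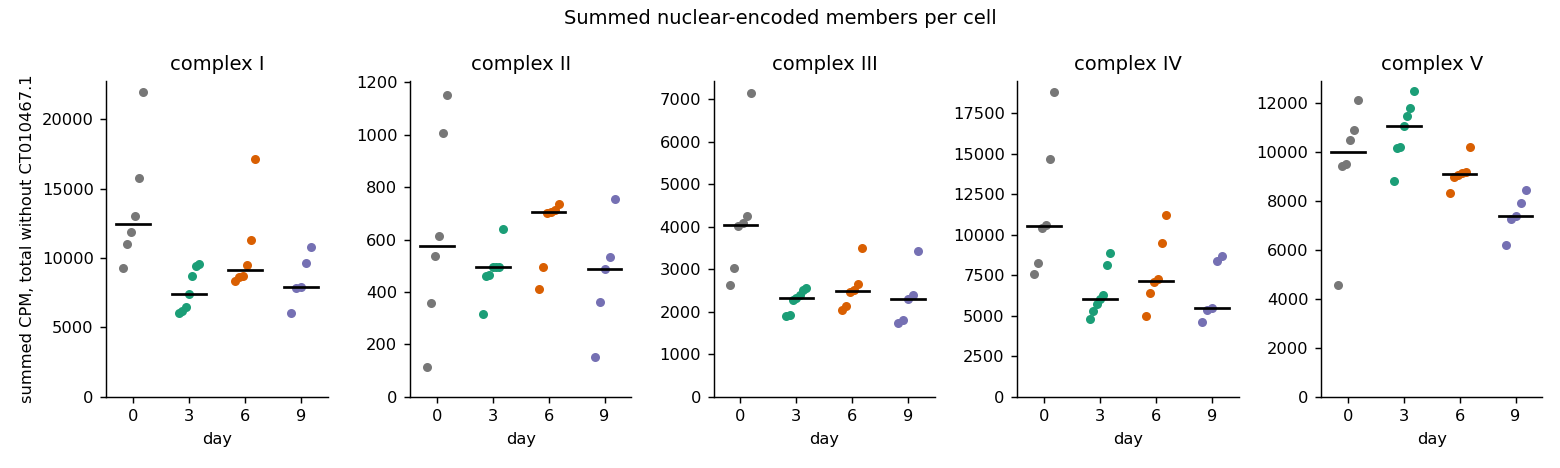
Summed CPM of each complex's nuclear-encoded members in every cell, with CT010467.1 left out of the total, by day of differentiation; points are cells and bars are medians. In complex III every day 3 cell lies below every day 0 cell, while in complex V the cells of days 3 and 0 overlap, and the order of their medians (here 11054 and 9977) turns with all gene reads as the total.

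Within complex I, values differed between the sets of genes that share a role. Transcript lengths were not at hand, so whether the split goes with role or with another trait was not tested. The 7 nuclear-encoded core subunits, which carry NADH oxidation and the iron-sulfur path, had medians of 0.22, 0.37 and 0.14 at days 3, 6 and 9, and none was 2-fold lower at day 3 or day 6. At days 3, 6 and 9, 2, 3 and 0 of the 7 were at least 2-fold higher, against 20.7%, 25.4% and 25.2% of all genes measured. The 28 measured of 32 accessory subunits, which surround that core, had medians of -1.39, -0.74 and -1.26 at days 3, 6 and 9. Of these accessory subunits 18, 10 and 18 were at least 2-fold lower at days 3, 6 and 9, and none was 2-fold higher, where 23.5%, 23.1% and 23.8% of all genes were lower. With 1 cell left out at a time, the core median ranged from 0.0028 to 0.54 at day 3 and from 0.14 to 1.10 at day 6. At day 9 it ranged from -0.19 to 0.49 and was below 0 without any 1 of day 0 cells 1, 2, 4 and 6 or day 9 cells 4 and 5. When only day 0 cells 5 and 6 were used the core medians were -0.38, -0.22 and -0.76, below the median gene, and the accessory medians were -1.56, -1.06 and -1.60. The core median was above the accessory median in both settings, and its direction depended on the day 0 cells used.

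Ndufv1, which binds NADH and the flavin, had 0 to 69.3 CPM (median 13.5) in day 0 cells, 34.4 to 158 CPM (median 74.9) at day 3, 7.53 to 176 CPM (median 64.2) at day 6 and 13.3 to 155 CPM at day 9. Its relative log2 ratios were 1.65, 1.30 and 0.93 at days 3, 6 and 9, and day 0 cells 1 and 2 had no read. Day 0 and later cells overlapped. With only day 0 cells 5 and 6 as baseline, Ndufv1 was not 2-fold higher on any day, with ratios of 0.93, 0.60 and 0.26 at days 3, 6 and 9. Ndufs7, a core subunit at the ubiquinone end, had relative ratios of 0.35, 1.12 and 0.48 at days 3, 6 and 9, and Ndufv2, a partner of Ndufv1, 0.22, 0.36 and 0.14 at days 3, 6 and 9. The iron-sulfur subunit Ndufs1 had 0.02, -0.95 and -1.99 at days 3, 6 and 9, and 1 day 0 cell held 65.2 CPM against a day 0 median of 0.410. Ndufs3 had -0.22, 0.37 and -0.59 at days 3, 6 and 9, and Ndufs8 -0.71, -0.26 and -0.92 at days 3, 6 and 9. Both lay within 2-fold of the median gene on each day.

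Among accessory subunits, Ndufs5 had 4.58 to 21.5 CPM (median 18.1) in day 6 cells, against 26.9 to 90.0 CPM (median 62.0) in day 0 cells. All 6 day 6 cells were below all 6 day 0 cells, as was the case for 0.192% of all genes measured. The ratio of day sums was 0.231 (95% counting interval 0.214 to 0.249), and the relative ratios were -1.62, -2.53 and -1.69 at days 3, 6 and 9. Ndufs6, a zinc-carrying subunit, had 59.9 to 140.1 CPM (median 78.3) in day 3 cells, against 56.0 to 479 CPM (median 401) in day 0 cells. Day 0 cell 2 was the low one, and the next had 373 CPM. Its relative ratios were -2.11, -0.45 and -1.04 at days 3, 6 and 9. Ndufv3, a small subunit beside Ndufv1, had relative ratios of -1.84, -0.85 and -2.10 at days 3, 6 and 9, with 85.1, 209, 101, 134 and 89.1 CPM in day 9 cells, against 50.1 to 653 CPM (median 288) in day 0 cells. Ndufa5 had -1.81, -1.70 and -1.36 at days 3, 6 and 9. Ndufb9, with the most reads in complex I, had 208 to 832 CPM (median 391) at day 0, 62.4 to 292 CPM (median 134) at day 3, 284 to 1476 CPM (median 463) at day 6 and 187 to 967 CPM at day 9. Day 3 cells were the low ones, with some overlap with day 0, and the relative ratios were -1.59, -0.13 and -0.59 at days 3, 6 and 9. Not all accessory subunits were low: Ndufa10, Ndufa8 and Ndufa9 stayed within 2-fold of the median gene on each day (0.09, -0.09 and -0.75 at day 9), these 3 being named after their values were seen.

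The 8 Ndufaf genes, whose products help to build complex I without staying in it, had medians of -0.05, 0.92 and 0.47 at days 3, 6 and 9. At days 3, 6 and 9, 3, 4 and 3 of the 8 were at least 2-fold higher, beside the same 20.7%, 25.4% and 25.2% of all genes. None of the 8 was above 33.9 CPM in the day 0 sum. Ndufaf6 had 0 to 19.997 CPM (median 7.18) in day 0 cells, 3.11 to 112 CPM (median 31.5) at day 3, 10.0 to 102 CPM (median 62.8) at day 6 and 3.58, 10.99, 99.7, 151 and 18.5 CPM in the 5 day 9 cells. Its relative ratios of 2.06, 2.19 and 1.99 at days 3, 6 and 9 were among the 5 highest on each day of the members that reached 20 CPM. Against day 0 cells 5 and 6 alone its ratios were 0.81, 0.95 and 0.78 at days 3, 6 and 9. Ndufaf3 had 0.189 to 193 CPM (median 35.2) in day 6 cells, against 0 to 24.3 CPM (median 0) in day 0 cells, of which 4 had no read, and a relative ratio of 2.67 at day 6. Ndufaf1 had 0.256, 2.40, 85.5, 18.9 and 4.31 CPM in day 9 cells, against 0 to 4.67 CPM (median 0.227) in day 0 cells. Its relative ratio at day 9 was 2.86, and a single cell held most of its reads. Ndufaf4 had 0, 133, 59.4, 69.5 and 31.1 CPM at day 9, against 0 to 56.7 CPM (median 2.97) in day 0 cells, with a relative ratio of 1.72. When only day 0 cells 5 and 6 were used the Ndufaf medians were -0.73, -0.19 and -0.41, so their direction also depended on which day 0 cells were used.

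Complex II has no mitochondrially encoded subunit, and its 4 genes differed in direction. The medians were -0.68, -0.30 and -0.65 at days 3, 6 and 9, with 1, 0 and 1 of 4 at least 2-fold higher and 2, 1 and 1 lower. Over all genes measured 20.7%, 25.4% and 25.2% were higher and 23.5%, 23.1% and 23.8% lower. Without day 0 cells 1 to 4 the median of complex II was 0.33, -0.22 and 0.17, so its direction at days 3 and 9 depended on the day 0 cells used. Sdha, the flavin-carrying catalytic subunit, had 0 to 119 CPM (median 7.76) in day 0 cells, 26.5 to 149 CPM (median 52.7) at day 3, 5.42 to 42.2 CPM (median 32.8) at day 6 and 9.71, 49.0, 216, 54.8 and 47.9 CPM in the 5 day 9 cells. Its relative ratios were 1.20, -0.37 and 1.08 at days 3, 6 and 9, and cells of all days overlapped. Sdhb, the iron-sulfur subunit, stayed within 2-fold of the median gene (-0.23, -0.22 and -0.51 at days 3, 6 and 9). Sdhc, a membrane anchor with the most reads in complex II, had -1.14, 0.21 and -0.79 at days 3, 6 and 9. Sdhd, the other anchor, had relative ratios of -1.94, -1.17 and -1.80 at days 3, 6 and 9, but day 0 cell 2 held 383 CPM and the next highest day 0 cell 44.3. Without day 0 cell 2 the Sdhd ratios were 0.74, 1.49 and 0.86 at days 3, 6 and 9, so the lower value rested on 1 cell.

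In complex III the 8 members had medians of -1.26, -0.84 and -1.46 at days 3, 6 and 9. Of these 8, 5, 3 and 6 were at least 2-fold lower, against 23.5%, 23.1% and 23.8% of all genes measured. Uqcr11, a small subunit whose promoter is printed above, had 188 to 595 CPM (median 359.6) in day 0 cells, 47.8 to 166 CPM (median 73.9) at day 3, 153 to 569.7 CPM (median 256) at day 6 and 223, 230.0, 144, 204 and 228 CPM in the 5 day 9 cells. Every day 3 cell was below every day 0 cell, which held for 0.413% of all genes measured. The ratio of day 3 to day 0 sums was 0.224 (95% counting interval 0.217 to 0.231), and the relative ratios were -2.24, -0.87 and -1.60 at days 3, 6 and 9. Uqcr10, the member of complex III with the most reads, had relative ratios of -2.04, -1.22 and -1.65 at days 3, 6 and 9. Uqcrb, a ubiquinone-binding subunit, had -1.27, -1.30 and -1.33 at days 3, 6 and 9, and Uqcrq, at day 6 among the 5 lowest members that reached 20 CPM, -1.24, -1.46 and -1.91 at days 3, 6 and 9. The core protein Uqcrc1 was on the other side, with 65.4 to 313 CPM (median 162) in day 3 cells, against 6.19 to 182 CPM (median 48.7) in day 0 cells. The Uqcrc1 ratios were 1.34, 0.65 and 0.78 at days 3, 6 and 9, with overlapping cells. Uqcrfs1, the Rieske iron-sulfur protein, had 0.76, 0.68 and 0.996 at days 3, 6 and 9, and the second core protein Uqcrc2 -0.12, -0.01 and -1.03 at days 3, 6 and 9. Uqcrc1 and Uqcrfs1 were thus above the median gene on each day and Uqcrc2 was not. With only day 0 cells 5 and 6 as baseline both were above the median gene too, with 1.45, 0.77 and 0.93 at days 3, 6 and 9 for Uqcrc1 and 2.00, 1.93 and 2.28 at days 3, 6 and 9 for Uqcrfs1.

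In complex IV the members had the lowest median of the complexes at days 6 and 9 (-0.94, -0.88 and -1.58 at days 3, 6 and 9), with 8 of 17, 6 of 18 and 11 of 16 measured members at least 2-fold lower. Over all genes measured 23.5%, 23.1% and 23.8% were at least 2-fold lower at days 3, 6 and 9. Several subunits come as tissue isoforms. Cox7a1, the heart and skeletal muscle isoform, had 0, 17.2, 82.8, 186, 389 and 321 CPM in day 0 cells 1 to 6. It had 2.61 to 25.4 CPM (median 7.26) at day 3, 0.489 to 65.4 CPM (median 9.74) at day 6 and 26.8, 21.0, 4.35, 5.45 and 5.42 CPM in the 5 day 9 cells. The day 0 cells spanned the widest range, and cells 3 to 6 were above every later cell. In the same 6 cells the fibroblast markers summed to 0.229, 38.1, 81.0, 0, 2.26 and 215 CPM, and their part in the Cox7a1 values was not tested. Relative ratios of -3.90, -3.73 and -4.49 at days 3, 6 and 9 were the lowest of all measured members on each day. Against day 0 the ratio of sums was 0.0667 (95% counting interval 0.0600 to 0.0740) at day 9. Cox7a2, the widely expressed isoform, had relative ratios of -1.40, -0.87 and -1.46 at days 3, 6 and 9, and Cox7a2l, which helps to join complexes III and IV into supercomplexes, 0.22, -0.22 and 0.50 at days 3, 6 and 9. The muscle isoform was thus lower relative to day 0 than both relatives, and Cox7a2l lay near the median gene.

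Cox6b2, an isoform best known from testis, had 119 to 491 CPM (median 229) in day 0 cells, 14.7 to 101 CPM (median 25.4) at day 3, 65.3 to 268 CPM (median 156) at day 6 and 48.5, 146, 133, 89.3 and 43.0 CPM in the 5 day 9 cells. All 7 day 3 cells were below all 6 day 0 cells, and the ratio of sums was 0.159 (95% counting interval 0.152 to 0.166). The Cox6b2 relative ratios were -2.72, -1.15 and -2.12 at days 3, 6 and 9, against -1.44, -0.90 and -0.92 at days 3, 6 and 9 for the general isoform Cox6b1. Cox6a1, the non-muscle isoform, had 456 to 649 CPM (median 543) at day 0, 122 to 351 CPM (median 163) at day 3, 173 to 654 CPM (median 402) at day 6 and 228, 658, 327, 545 and 437 CPM in the 5 day 9 cells. Its day 0 cells lay close together, every day 3 cell was below them, and days 6 and 9 overlapped day 0. The ratio of day 3 to day 0 sums was 0.396 (95% counting interval 0.388 to 0.405), and the relative ratios were -1.43, -0.92 and -0.97 at days 3, 6 and 9. Cox8a, the general isoform, had 229, 516, 208, 301 and 422 CPM in day 9 cells, against 633 to 1109 CPM (median 795) in day 0 cells. Every day 9 cell was below every day 0 cell, which held for 0.193% of genes measured, with a ratio of sums of 0.403 (95% counting interval 0.395 to 0.411). Relative ratios for Cox8a were -0.85, -1.01 and -2.01 at days 3, 6 and 9.

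Cox4i2, the isoform tied to low oxygen and lung, had 0 to 93.1 CPM (median 21.2) in day 0 cells, 0 to 32.4 CPM (median 2.30) at day 3, 0 to 68.9 CPM (median 0.0935) at day 6 and 7.67, 16.9, 0, 19.3 and 1.77 CPM in the 5 day 9 cells, with relative ratios of -1.89, -1.95 and -2.36 at days 3, 6 and 9. The span of Cox4i2 overlaps Bcl2l1, and the sister isoform Cox4i1 was listed at 0. Ndufa4 had relative ratios of -1.22, -0.59 and -0.90 at days 3, 6 and 9. Its paralog Ndufa4l2, a gene known to respond to hypoxia, had 37.2 to 180.2 CPM (median 110.4) in day 6 cells, against 0 to 67.7 CPM (median 26.8) in day 0 cells, and relative ratios of 0.12, 1.15 and -1.57 at days 3, 6 and 9. Ndufa4l2, whose span overlaps Shmt2, was thus higher at day 6 and lower at day 9, where cell 4 alone held 76.0 CPM. Cox5a, with the most reads in complex IV, stayed within 2-fold of the median gene (-0.57, -0.34 and -0.56 at days 3, 6 and 9). Cox7b had -0.94, -0.90 and -1.69 at days 3, 6 and 9. The testis isoforms Cox7b2 and Cox8c had at most 0.474 and 4.15 CPM in a day 0 cell, so they were measured only where a later day held reads. Cox7b2 reached 19.0 CPM and Cox8c 30.6 CPM in a day 6 cell, and neither had a read at day 9.

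In complex V the 2 large subunits of the catalytic F1 head were higher at day 3, while of the other 15 subunit IDs 13 of 15 measured were below the median gene. Atp5a1, the alpha subunit, had 181 to 395 CPM (median 256) in day 0 cells, 449 to 1049 CPM (median 859) at day 3, 219 to 606 CPM (median 512) at day 6 and 113, 375, 964, 452 and 393 CPM in the 5 day 9 cells. Over all gene reads every day 3 cell was above every day 0 cell, as for 1.8% of all genes measured, and days 6 and 9 overlapped day 0. The ratio of day 3 to day 0 sums was 2.95 (95% counting interval 2.89 to 3.01), and the relative ratios were 1.46, 0.37 and 0.25 at days 3, 6 and 9. The span of Atp5a1 overlaps Haus1. Atp5b, the catalytic beta subunit and the member with the most reads in complex V, had 179 to 1849 CPM (median 747) at day 0, 1095 to 2712 CPM (median 1770.2) at day 3, 341 to 2582 CPM (median 1262) at day 6 and 150.0, 497, 1153, 912 and 838 CPM in the 5 day 9 cells. Cells of all days overlapped for Atp5b, with relative ratios of 1.01, 0.19 and -0.75 at days 3, 6 and 9. Against day 0 cells 5 and 6 alone the ratios at day 3 were 1.41 for Atp5a1 and 1.65 for Atp5b. Atp5c1, the gamma subunit, lay near the median gene at 0.28, -0.03 and -0.24 at days 3, 6 and 9. Atp5e, the small epsilon subunit of the same head, had 34.6 to 102 CPM (median 59.4) in day 3 cells, against 105 to 299 CPM (median 214) in day 0 cells. In CPM over all gene reads every day 3 cell was below every day 0 cell for Atp5e, but with CT010467.1 left out of the totals the highest day 3 cell had 198 CPM and the lowest day 0 cell 159.8, so they overlapped. The ratio of sums was 0.280 (95% counting interval 0.270 to 0.291) and the relative ratios were -1.91, -1.25 and -1.75 at days 3, 6 and 9.

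Of the membrane part of complex V, the f subunit gene Atp5j2 had 76.0 to 247 CPM (median 81.2) in day 3 cells, against 246 to 802 CPM (median 452) in day 0 cells, with relative ratios of -2.06, -1.23 and -1.77 at days 3, 6 and 9. Atp5g1, Atp5g2 and Atp5g3 encode the same mature c subunit of the rotor ring, and reads could be split between them or their copies. Atp5g1 had relative ratios of -1.18, -1.17 and -1.01 at days 3, 6 and 9. Atp5g2 had -1.30, -0.10 and -1.44 at days 3, 6 and 9, and Atp5g3 -0.22, 0.62 and 0.19 at days 3, 6 and 9. Atp5g3 was thus within 2-fold on each day, and Atp5g1 was at least 2-fold lower on each day. Atp5j, the peripheral stalk member whose promoter is printed above, had -0.87, -0.55 and -0.78 at days 3, 6 and 9. Over the complex, 8, 4 and 8 of 18 were at least 2-fold lower, with medians of -0.81, -0.42 and -0.77 at days 3, 6 and 9. Of all genes measured 23.5%, 23.1% and 23.8% were lower, so the day 6 share of 22.2% was near the background. Atp5o was on 2 gene IDs, of which 1 held at most 1.54 CPM in a cell. Pseudogene rows left out by the rule held 2456 reads for Ndufb1-ps and 337 for Atp5l2-ps over 24 cells, and the values of Atp5l are uncertain to that extent.

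**Figure D3:**
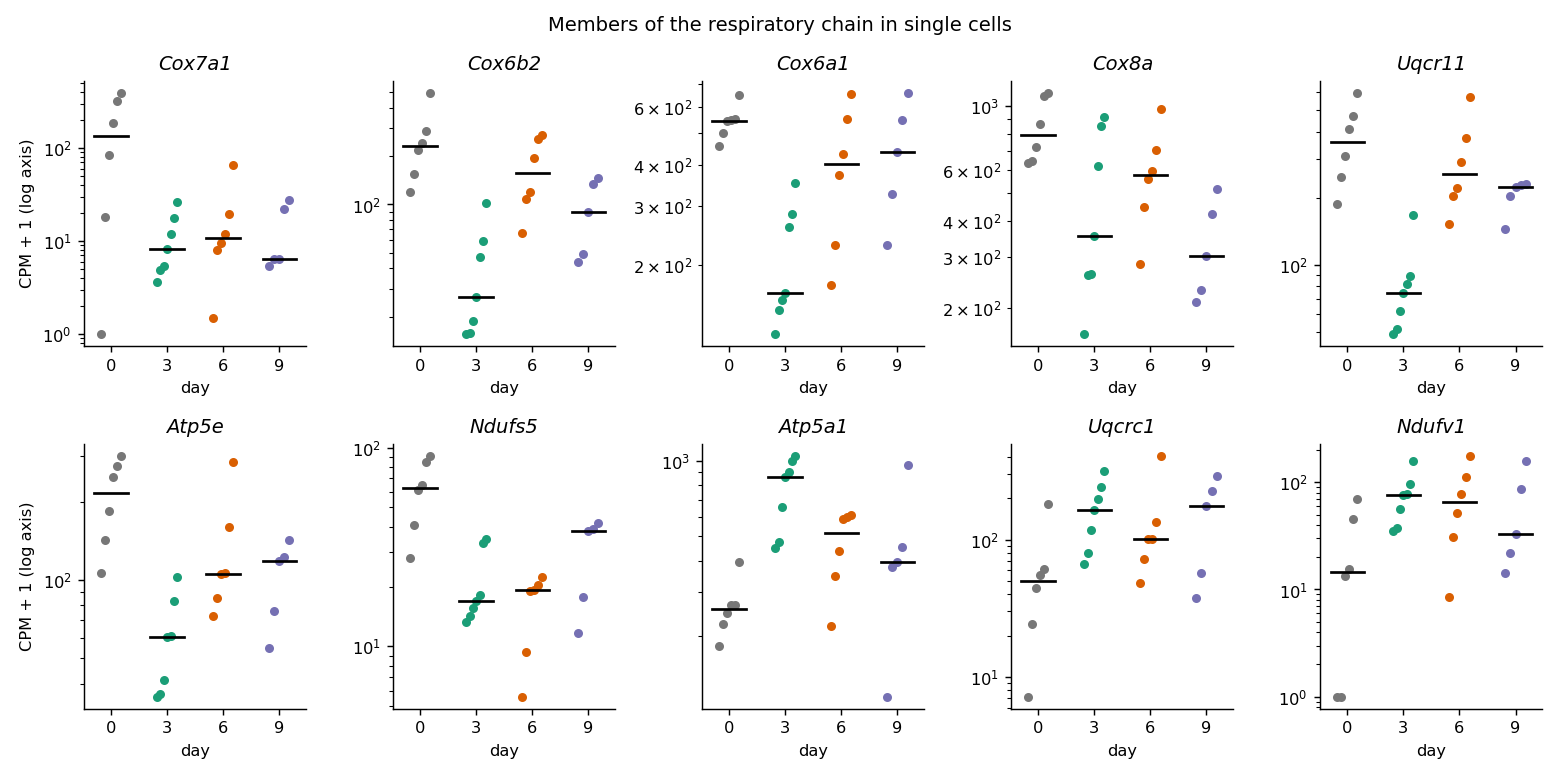
CPM plus 1, on a log axis, of 10 members in every cell by day; points are cells and bars are medians. With all gene reads as the total, Cox6b2, Cox6a1, Uqcr11 and Atp5e have every day 3 cell below every day 0 cell (Atp5e loses this without CT010467.1 in the total), Ndufs5 has this at day 6 and Cox8a at day 9, while Atp5a1 has every day 3 cell above every day 0 cell.

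Over all members, 4 of 90 had every day 3 cell below every day 0 cell and 1 had every cell above, against 0.413% and 1.8% of all genes. At day 6 the counts were 1 below and 0 above, against 0.192% and 1.26%. At day 9 they were 1 and 0, against 0.193% and 2.11%. For most members, cells of a later day and of day 0 overlapped. These calls depended in part on the total, by an alternative chosen after seeing the data. With CT010467.1 left out of the totals, 5 members were below and 2 above at day 3 (0.339% and 2.83% of all genes), and with the mitochondrially encoded genes left out too, 10 were below and 0 above (0.481% and 2.18%). At day 6 the first of these totals gave 2 below and 0 above (0.298% and 0.88%) and the second 3 and 0 (0.523% and 0.701%). At day 9 they gave 2 and 0 (0.193% and 2.34%) and 5 and 0 (0.329% and 2.17%). Cox6a1, Cox6b2 and Uqcr11 at day 3, Ndufs5 at day 6 and Cox8a at day 9 were below day 0 with all 3 totals. Atp5a1 was above at day 3 with all gene reads and without CT010467.1, but with both left out its lowest day 3 cell had 963 CPM and its highest day 0 cell 1114.

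Ratios within a cell do not depend on its total reads. At day 3 they were higher for the sum of Atp5a1 and Atp5b in complex V. They were also higher for the sum of Uqcrc1, Uqcrc2 and Uqcrfs1 in complex III. Summed reads of Atp5a1 and Atp5b over the other 15 complex V subunits were 0.110 to 0.561 (median 0.214) at day 0, 0.627 to 1.92 (median 1.34) at day 3, 0.0941 to 0.652 (median 0.523) at day 6 and 0.156 to 0.534 (median 0.2501) at day 9. Every day 3 cell was above every day 0 cell, and days 6 and 9 overlapped day 0. Day 0 cells 5 and 6, with few mitochondrially encoded reads, had ratios of 0.188 and 0.110, below all 7 day 3 cells. In complex III, Uqcrc1, Uqcrc2 and Uqcrfs1 over the other 5 gave 0.0379 to 0.249 (median 0.101) at day 0, 0.309 to 0.994 (median 0.482) at day 3, 0.0378 to 0.765 (median 0.281) at day 6 and 0.0644 to 0.962 (median 0.393) at day 9. Again no day 3 cell overlapped day 0, and day 0 cells 5 and 6 had 0.0499 and 0.0379. Both groupings were chosen after the values were seen and are descriptions. Complex I core over accessory subunits gave 0.0292 to 0.178 (median 0.0475) at day 0, 0.156 to 0.225 (median 0.203) at day 3, 0.0950 to 0.256 (median 0.193) at day 6 and 0.0705 to 0.224 (median 0.153) at day 9. Here day 0 cell 5, at 0.178, lay among the day 3 cells and the other 5 day 0 cells below them.

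**Figure D4:**
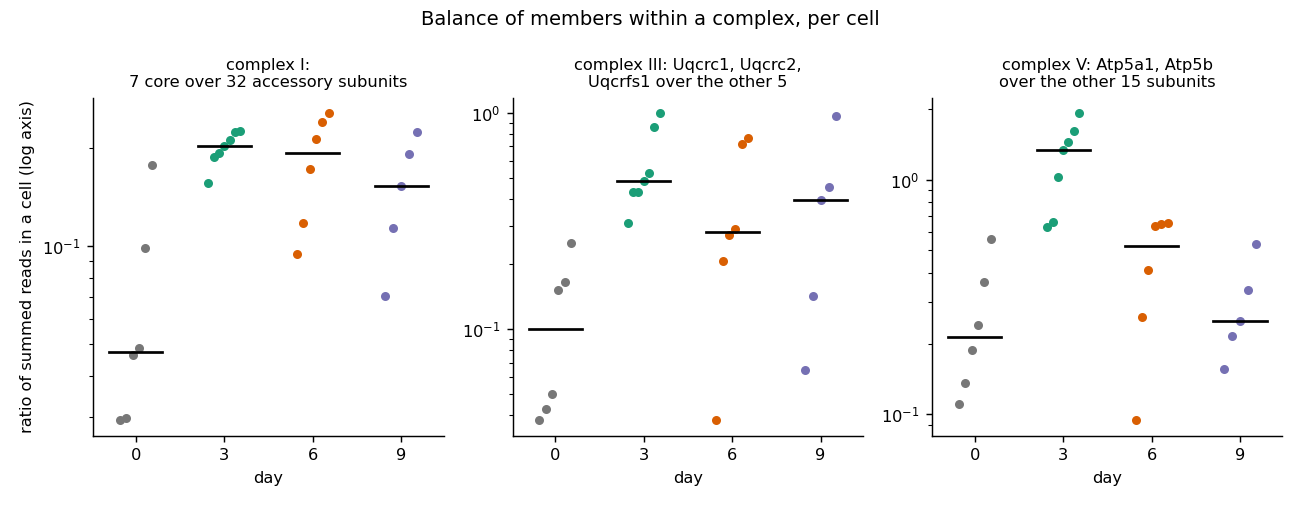
Ratio of summed reads of one set of subunits to another within each cell, on a log axis, by day; points are cells and bars are medians. Day 3 cells lie above all day 0 cells in complexes III and V, while in complex I the day 0 cell at 0.178 overlaps them.

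The median of the 13 subunits encoded in mitochondrial DNA lay below the median gene on each later day, by an amount that depended on the day 0 cells used. Of the 13, mt-Cytb was above the median gene at day 9, at 0.28. The medians of the 13 were -2.68, -1.16 and -1.31 at days 3, 6 and 9. On those days 13, 11 and 8 of 13 were at least 2-fold lower, against 23.5%, 23.1% and 23.8% of all genes measured. Together they held 13815 to 87507 (median 51318) CPM in day 0 cells and 5755 to 15326 (median 11274) at day 3. They held 14551 to 48019 (median 31321) at day 6 and 7763 to 151387 (median 32391) at day 9. Day 9 cell 4 held the 151387 CPM and the next cell 32421. Without day 9 cell 4 the day 9 median of the relative ratios was -1.82. When only day 0 cells 5 and 6 were used the medians were -1.44, -0.18 and -0.23, against -1.40, -0.88 and -1.51 for the nuclear-encoded members. In that setting, which kept day 9 cell 4, the 13 lay nearer to the median gene at days 6 and 9 than the nuclear-encoded members. At day 9, 2 of the 13 were then at least 2-fold higher and 2 lower, against 27.4% and 24.6% of all genes. The electron carrier cytochrome c (Cycs) had relative ratios of -1.55, -0.82 and -0.70 at days 3, 6 and 9. Cyc1, the cytochrome c1 of complex III, had 0.29, 0.16 and -0.25. Atpif1, the inhibitor of ATP synthase, had -1.10, -0.25 and -1.20. Over this list of 14 carriers and further subunits the medians were -0.57, -0.30 and -0.81 at days 3, 6 and 9. Of the 14, 5, 4 and 6 were at least 2-fold lower and 3, 2 and 3 higher. Of all genes measured 20.7%, 25.4% and 25.2% were higher, beside the same shares lower as above.

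Other mitochondrial and metabolic lists had medians nearer to the median gene, or above it. Beside the day 3 counts below, 23.5% of all genes measured were at least 2-fold lower and 20.7% higher on that day. Assembly factors other than Ndufaf had -0.41, -0.23 and -0.23 at days 3, 6 and 9, with 13 of 36 lower and 7 higher at day 3. Mitochondrial ribosomal proteins had -0.15, 0.08 and -0.13 at days 3, 6 and 9, close to the median gene. Cytosolic ribosomal proteins had -0.24, -0.21 and -0.59 at days 3, 6 and 9, and -0.83, -0.79 and -1.13 against day 0 cells 5 and 6 alone. Single genes of that list also lay on both sides, from -1.53 to 1.67 at day 3, with 14 of 84 lower and 4 higher. Genes of the TCA cycle, which feeds NADH to complex I, had 0.87, 0.35 and 0.85 at days 3, 6 and 9, with 7 of 17 at least 2-fold higher and 2 lower at day 3. Pdha1, a subunit of pyruvate dehydrogenase, had relative ratios of 3.03, 2.54 and 2.14 at days 3, 6 and 9. The median of the TCA list at day 6 was below 0 without day 0 cell 4 (-0.08). With only day 0 cells 5 and 6 as baseline the TCA medians were 0.94, 0.60 and 0.32. Glycolysis genes had 1.26, 0.76 and -0.09 at days 3, 6 and 9, with 12 of 18 higher and 2 lower at day 3, and 1.48, 0.50 and 0.06 with day 0 cells 5 and 6 only. Ldha, lactate dehydrogenase A, had 2.60, 1.85 and 0.86. The glycolysis list was thus above the median gene at days 3 and 6, where the respiratory chain members were below it, and near it at day 9. The list of 20 regulators had medians of 0.23, -0.0011 and 0.07 at days 3, 6 and 9. Tfam, which packages and transcribes mitochondrial DNA, had 1.25 CPM in the day 0 sum, 18.5 at day 3, 36.6 at day 6 and 69.1 at day 9. Its ratio was the highest of the measured regulators on each later day, and 3 of 6 day 0 cells had a read. Others of the list differed: Polrmt had 0.56, -0.82 and -1.75 at days 3, 6 and 9, Tfb1m 0.23, 1.07 and -0.44, and Tfb2m -2.87, -2.28 and -1.34. Nrf1 had relative ratios of -0.0011, 0.41 and 0.17, and Ppargc1a had at most 0.0659 CPM in a day's sum. Genes named from these lists were picked after their values were seen.

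**Figure D5:**
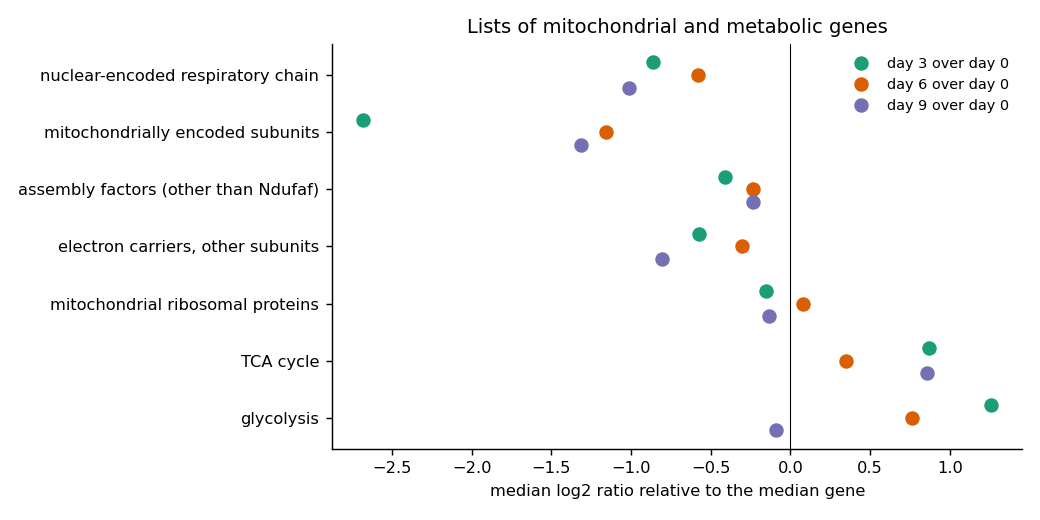
Median log2 ratio to day 0, relative to the median gene, of 7 gene lists at days 3, 6 and 9; each point is the median over a list's measured genes. The medians of the nuclear-encoded members (-0.86 at day 3) and the mitochondrially encoded subunits (-2.68) are below 0 on every day, and that of the TCA cycle list (0.87) is above it.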

How the data were processed

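The values used were counts of reads per gene, deposited by the authors as 1 table per cell, with 55401 gene rows and 5 closing lines. For the RNA counts, the aligner, counting tool, annotation and strand setting were not given in the sources used here. Per the submitters' processing notes, mm10 and Trim Galore 0.6.7, Bowtie2 2.2.9 and Bismark were among the builds and tools, with no role stated. Closing lines were left out of totals: reads in no gene made up 1.04 to 4.51% of a file's reads, ambiguous 0.851 to 5.06%, low quality 0.181 to 1.01%, unaligned 4.09 to 51.2% and not unique 3.86 to 18.8%. Human K562 files and DNA samples were not used here.

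Gene IDs were matched to symbols with the version ignored (55141 of 55401). Counts were summed over a day's cells and scaled to CPM (1000000 times reads over gene reads). Relative log2 ratios used a pseudocount of 1 CPM and subtracted the median over all genes with at least 20 reads and 2 libraries with a read, which was 0.09 at day 3, 0.49 at day 6 and 0.71 at day 9. A gene was called at 2-fold. Counting intervals (95%, exact binomial for ratios) and floors of 3 reads cover counting error only, since reads carried no molecular identifiers. A count of 0 in a cell allowed up to 0.183 to 0.767 CPM. Cells were grouped by the labels, and no 2 libraries of a day agreed within sampling noise (lowest chi-square per degree of freedom 35.5 over 61 pairs). RefSeq spans overlapped another gene for 31 of 96 members found there. The steps were tested on simulated data.

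Named members were fixed symbols (complex I core, Sdh, Uqcrc1, Uqcrc2, Uqcrfs1, Uqcrb, isoform sets, Atp5a1, Atp5b, Atp5c1), the 5 highest and 5 lowest ratios per comparison among members reaching 20 CPM, and the member with most reads per complex. Others were named after their values were seen, and a gene that the rule names is not reported here. The members and lists were chosen with earlier results of these data known. Alternatives were TMM (edgeR 4.0.16) and size factors (DESeq2 1.42.0), means or medians over cells, other totals, pseudocounts and filters, cells left out and other memberships. Python 3.11.15, numpy 2.4.6, pandas 2.3.3, scipy 1.17.1, matplotlib 3.10.9 and R 4.3.3 were used.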

Additional observations from a re-analysis of the deposited data

Results flagged for a closer look

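Of 226 groups of 5 to 7 cells compared within a day, 26 had a highest or lowest cell far from the others by Dixon's 95% limit. That limit is passed in about 1 of 20 groups where values are normal and groups independent. Here CPM values include zeros, groups share cells, and some members were named for their ratios. The 26 therefore cannot be read against that rate. Of the 26, day 0 had 7, day 3 had 7, day 6 had 8 and day 9 had 4.

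The sum over all members was lowest in day 9 cell 1, at 7760.1 CPM, with the next cell at 16756. CT010467.1 took 73.1% of that cell's reads, and without it in the total the sum was 28835 CPM, where the other 4 had 20321 to 30582. At day 6, cell 3 was the highest cell past Dixon's limit in 7 members. It had 271 CPM of Ndufa5 (next 109), 1010.2 of Ndufs6 (next 404), 799 of Uqcr10 (next 339) and 660.5 of Cox7a2 (next 353). The same cell had 68.9 CPM of Cox4i2 (next 3.16), 65.4 of Cox7a1 (next 18.4) and 30.6 of Cox8c, where the next was 0. Cell 4 of that day had 406 CPM of Uqcrc1, against 133 in the next.

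At day 3, cell 6 was the highest cell past Dixon's limit in 6 members, and it was highest in others that did not pass it. Its values were 237 CPM of Ndufv3, 166 of Uqcr11, 198 of Uqcrfs1, 32.4 of Cox4i2, 5.84 of Cox7b2 and 1.54 of Cox8b. Cell 2 of day 3 had 149 CPM of Sdha, next 70.1.

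At day 0 such values were spread over 5 cells. Cell 2 was highest in Sdhd (383 CPM, next 44.3) and lowest in Ndufs6 (56.0, next 373). Cell 3 was highest in Uqcrc1 (182) and Cox8c (4.15), cell 1 in Atp5g3 (246), cell 5 in Ndufaf4 (56.7) and cell 6 in Ndufaf3 (24.3). At day 9, cell 3 was highest in Sdha (216 CPM) and Ndufaf1 (85.5), and cell 4 in Ndufa4l2 (76.0).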

How the results depend on the processing

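The member median was below the median gene on all 3 days under every setting run, from -1.51 to -0.19. With 1 cell left out at a time day 3 ranged from -1.15 to -0.67, day 6 from -0.74 to -0.40 and day 9 from -1.25 to -0.93. Members at least 2-fold lower then numbered 35 to 51, 19 to 36 and 42 to 55, and those higher 7 to 11, 5 to 12 and 4 to 9 (5 without day 0 cell 4 at day 6; 9 without day 9 cell 2 and 7 without day 0 cell 3 at day 9). Against the 2 day 0 cells under 10% mitochondrially encoded reads, 40 members were lower at day 6 in place of 25, and the day 9 median was -1.51 in place of -1.01. By medians over cells, 21 were higher at day 6 in place of 10 and 12 at day 9 in place of 4. A pseudocount of 0.1 CPM gave 38 lower at day 6 and a day 9 median of -1.40. A pseudocount of 10 CPM gave 6 lower at day 6, and at day 9 a median of -0.44, 9 higher and 21 lower in place of 45. A minimum of 1 read gave 9 lower at day 6, and at day 9 a median of -0.56 with 9 higher. A minimum of 200 reads gave 6 higher at day 6, and subunits only 6 at day 6 and 1 at day 9. The cause of these differences was not tested.

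For single members, the relative log2 ratio of Sdhd changed sign at days 3, 6 and 9: by medians over cells it was 1.10, 2.49 and 0.74, and against the 2 low-mitochondrial day 0 cells 2.50, 3.28 and 2.68. With 1 cell left out day 3 ranged from -2.36 to 0.74, day 6 from -1.56 to 1.49 and day 9 from -2.24 to 0.86, the highest without day 0 cell 2. Against the low-mitochondrial cells Ndufaf3 was -0.10 at day 3, Ndufs7 -0.15 and Ndufaf4 -0.55 at day 6, and Uqcrc2 0.056 at day 9. By medians over cells Cox8c was -0.28 at day 6 and Ndufs1 1.20 at day 9. No other named member changed sign after being called. Of the complex medians 178 of 180 with 1 cell left out, and 170 of 186 in other settings, stayed within the spread between cells. Of 1691 member values with 1 cell left out 1672 did, and 1437 of 1549 in other settings did. The spread used was the standard deviation over single cells of the later day, without that of day 0 cells. Leaving 1 cell out of a sum is expected to move a value by only part of it. These counts therefore cannot show that the values are stable.

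No paired analysis was possible because the replicate numbers name single cells and no test was made. Each day is 1 sample, so the range over cells is the only spread at hand. Low members are limited by depth: no read in a cell allows a level of up to 0.183 to 0.767 CPM, by its depth.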
